A study of Homo sapiens with 24 samples.

Results

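The interaction of 2 compounds, SR4 and lonidamine, was described in BXPC3, a human pancreatic ductal adenocarcinoma cell line. All 12 BXPC3 libraries of the 24 in the series were used, and they form a 2 by 2 design with 3 libraries in each of 4 groups. The groups were vehicle, SR4 at 5 µM, lonidamine at 300 µM, and both compounds together, each for 24 h in low-glucose medium with serum. Polyadenylated RNA was sequenced and the deposited values are gene counts. By its title, the series concerns treating pancreatic cancer through its energy supply with both agents. The labels do not state the doses inside the combination separately, and the interaction assumes that they equal those of the single treatments. Nothing says that the 3 libraries of a group came from separate cultures, so p-values measure the spread between these libraries, which may be technical. The other 12 libraries are from PANC1, another pancreatic cancer line given the same treatments, and they were used for the same interaction in that line and for tests of the difference between the lines.

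SR4 is a code name for a mitochondrial uncoupler, a compound that lets protons cross the inner mitochondrial membrane without driving ATP synthesis. Lonidamine acts on several steps of energy supply: pyruvate entry into mitochondria, the export of lactate and other monocarboxylates, and respiratory complex II. Stressed mitochondria are known to switch on the integrated stress response, in which the transcription factor ATF4 raises genes of amino acid supply, while cells short of sterol are known to raise cholesterol genes through the SREBP factors.

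For each gene the interaction was the log2 level with both compounds, minus that with SR4, minus that with lonidamine, plus that with vehicle. An interaction of 0 means that the log2 changes of the single compounds add up to the change of the combination, so that the fold changes multiply. A positive value means that the combination stood above that sum and a negative value that it stood below it, whatever the direction of the single changes. Levels are given as CPM, the count scaled to library size, and adjusted p-values are those of edgeR's quasi-likelihood test, adjusted by Benjamini-Hochberg over all genes tested. A gene is named called where its adjusted p is under 0.05.

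Library totals lay between 9142433 and 11470973 counts. The 3 combination libraries, at 9366776 counts or less, were the shallowest. SMAD4, deleted in this line, had 0 counts in all 12 libraries, which allows up to 0.337 CPM in the shallowest. CDH1 and EPCAM, epithelial surface proteins, stood at 436 CPM or more and 213 CPM or more in every group. Summed marker levels of other cell types were at most 39.7 CPM in any group for immune cells, mostly CD68, and 36.2 CPM for fibroblasts, with CD2 and NKG7 at 0. Endothelial and acinar markers summed to at most 12.9 and 13.4 CPM, and INS, GCG and SST were at 0. A list of 11 nuclear-retained and snoRNA host RNAs, led by MALAT1, summed to 670 to 719 CPM in the vehicle libraries, 1430 to 1970 with SR4, 1460 to 2510 with lonidamine and 2390 to 2870 with both, so only SR4 and lonidamine, and lonidamine and both, overlapped, and their part in the results was not tested. In bulk RNA, fewer cells and less RNA per cell cannot be told apart.

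The combination departed from the sum of the single changes in 6359 of 12920 genes tested (49.2%). The interaction was positive in 3061 genes (23.7%) and negative in 3298 (25.5%). It reached 1 log2 in size in 730 positive (5.65%) and 671 negative (5.19%) genes, and from the 5th to the 95th percentile it ran from -1.08 to 1.18. A positive interaction did not always put the combination above the other groups. Of the 3061 genes, 920 had all 3 combination libraries above the other 9 libraries and 454 below them. The remaining 1687 (55.1%) had neither. Of the 3298 negative genes, 488 had them above, 1048 below and 1762 (53.4%) neither. Over all genes, combination libraries lay above the other 9 in 2742 (21.2%), below in 2565 (19.9%) and neither in 7613 of 12920. Among genes not called, neither held for 63.5%. On the linear CPM scale, where changes add instead of multiply, 60.5% of calls were positive, against 48.1% on the log2 scale. The linear calls were 3975 positive and 2593 negative genes of 12920.

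**Figure D1:**
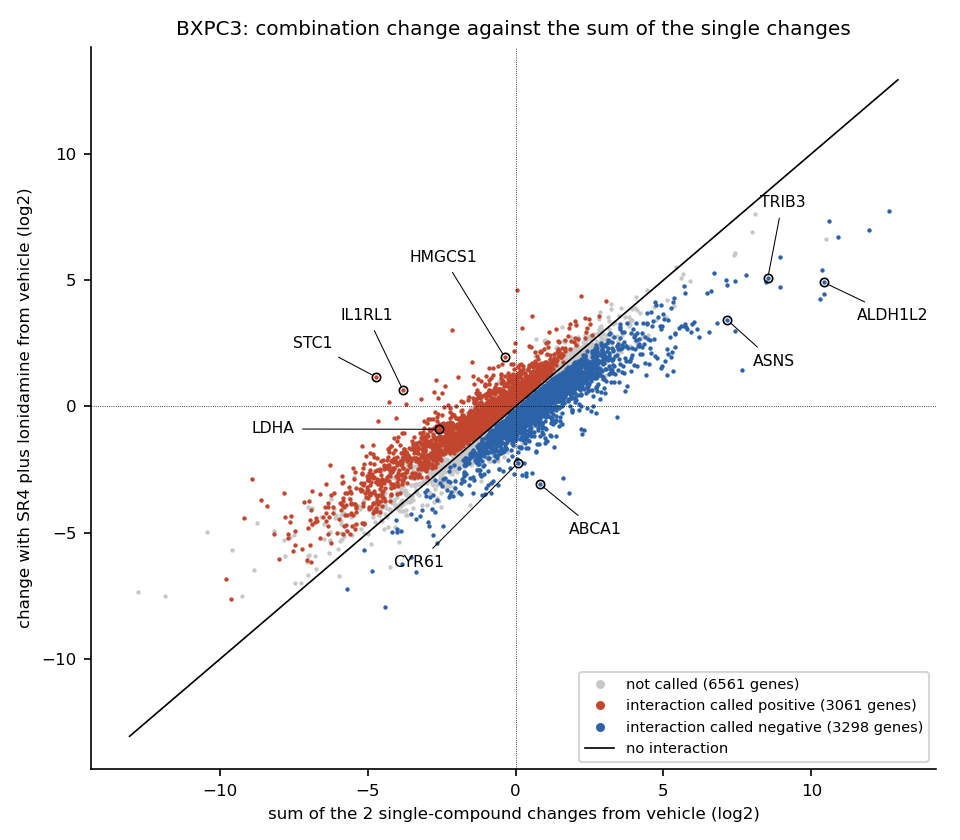
Each point is 1 of 12920 genes in BXPC3, with the sum of the SR4 and lonidamine changes on the x axis and the change with both compounds on the y axis, all against vehicle in log2. Points above the diagonal have a positive interaction (3061 called) and points below it a negative one (3298 called), with STC1 and IL1RL1 far above it and ALDH1L2 and ABCA1 far below.

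The genes named for the most positive interactions were lowered by each compound alone. STC1, a secreted regulator of calcium and phosphate, stood at 24.5, 27.6 and 27.4 CPM in the vehicle libraries, 2.95, 3.66 and 3.35 with SR4, 7.99, 8.16 and 8.13 with lonidamine and 60.9, 58.6 and 57.9 with both. It was lower in every single-compound library than in any vehicle library, and higher in every combination library than in any of the other 9, an interaction of 5.86 ± 0.14 log2 (SE, adjusted p = 8.97e-22). IL1RL1, the interleukin 33 receptor, at chr2:102311502-102352037 (hg38), stood at 106, 107 and 116 CPM in the vehicle libraries, 53.6, 52.99 and 49.1 with SR4, 16.6, 15.6 and 17.7 with lonidamine and 166, 172 and 172 with both. Vehicle again lay above both single treatments and the combination above vehicle, an interaction of 4.44 ± 0.083 log2 (SE, adjusted p = 3.25e-24). DHRS9, a retinol dehydrogenase, and HAS2, which makes hyaluronan, had interactions of 3.59 ± 0.16 and 3.09 ± 0.13 log2 (SE). Their means were 34.2, 9.10, 7.83 and 25.1 CPM and 66.2, 21.1, 6.20 and 16.9 CPM with vehicle, SR4, lonidamine and both, so the combination stayed under vehicle but well above the added log2 changes of 2.08 and 1.98 CPM.

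Most genes named for the most negative interactions were raised by each compound from low levels and raised little further, or less, by the combination. ALDH1L2, the mitochondrial formyltetrahydrofolate dehydrogenase, stood at 1.48, 1.49 and 1.24 CPM in the vehicle libraries, 53.9, 47.2 and 47.4 with SR4, 54.2, 54.1 and 57.4 with lonidamine and 40.8, 45.8 and 40.98 with both. All treated libraries were far above vehicle, with those of the combination lowest among them, an interaction of -5.51 ± 0.15 log2 (SE, adjusted p = 9.62e-21). SYBU, a kinesin linker, went from 4.40 CPM to 24.4 with SR4 and 31.7 with lonidamine but only to 11.6 with both, an interaction of -3.92 ± 0.15 log2 (SE). ADM2, a peptide hormone, had -4.22 ± 0.14 log2 (SE). INHBE, an activin subunit, and OSCAR, an immunoglobulin-like receptor, had -5.98 ± 0.55 and -4.88 ± 0.33 log2 (SE), and both rest on few vehicle counts, with vehicle means of 0.118 and 0.236 CPM. OSCAR was highest in the combination libraries, and on the linear scale its interaction was positive. ABCA1, the cholesterol export pump, at chr9:104781002-104928237, differed from these: 52.2, 39.3 and 49.97 CPM in the vehicle libraries, 26.1, 40.5 and 32.4 with SR4, 131, 128 and 103 with lonidamine and 4.72, 5.24 and 6.85 with both. Lonidamine libraries were the highest and combination libraries the lowest of the 12, without overlap, an interaction of -3.90 ± 0.21 log2 (SE, adjusted p = 2.15e-14).

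Genes of cholesterol synthesis and uptake were raised by the combination well beyond the sum of the single compounds. Of 27 tested members 24 had a positive interaction and 0 a negative one, against 23.7% and 25.5% of all genes. In 25 of the 27 all combination libraries lay above the other 9 (21.2% over all genes). The median change was 0.18 log2 with SR4, -0.028 with lonidamine and 1.63 with both, and the median interaction 1.34, against -0.021 over all genes. Called were 8 of 9 genes of the mevalonate arm, which builds isoprene units, all 11 of the sterol arm and all 4 of uptake and transport.

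Promoters of these members are shown because the genes moved together. RefSeq promoters (GRCh38.p14, 250 bases before to 50 after the start) were matched for 17 of the 24 called members. The CCAAT box, the letters CCAAT on either strand (ATTGG when read on the other), occurred in 14 of 17 (82.4%), against 36.9% of the 10528 tested genes with a promoter. Among called members of other lists, also ones with negative interactions, the G1/S list held it in 20 of 31 (64.5%), the ATF4 list in 15 of 28 (53.6%), the hypoxia list in 8 of 17 (47.1%), the MondoA list in 4 of 4 and the YAP list in 4 of 17 (23.5%). The sterol regulatory element was searched as TCACNCCAC and found in 0 of 17, against 1.04%, and the E-box CACGTG in 3 of 17 (17.6%), against 10.0%. With a share as low as 1.04%, 0 of 17 cannot show that the element is missing, and variants of its letters were not searched. A match of letters is a description and not a measured binding site. For 5 members the bases before the gene's span in the count table are printed 5′ to 3′ on the gene's strand, with CCAAT boxes in capitals.
INSIG1: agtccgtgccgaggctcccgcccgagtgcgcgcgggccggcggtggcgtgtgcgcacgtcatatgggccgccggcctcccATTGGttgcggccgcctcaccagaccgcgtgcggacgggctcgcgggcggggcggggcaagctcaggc
HMGCS1: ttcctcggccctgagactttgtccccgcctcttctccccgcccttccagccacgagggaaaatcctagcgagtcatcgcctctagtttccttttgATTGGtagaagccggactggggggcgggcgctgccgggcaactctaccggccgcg
MVD: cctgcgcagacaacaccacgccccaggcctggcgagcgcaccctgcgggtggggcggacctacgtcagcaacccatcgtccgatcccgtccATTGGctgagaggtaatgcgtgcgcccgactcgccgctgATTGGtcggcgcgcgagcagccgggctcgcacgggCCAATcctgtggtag
STARD4: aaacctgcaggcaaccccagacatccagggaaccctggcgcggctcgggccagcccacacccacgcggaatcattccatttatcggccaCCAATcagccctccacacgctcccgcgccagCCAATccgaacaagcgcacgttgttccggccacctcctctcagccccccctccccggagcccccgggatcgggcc
MSMO1: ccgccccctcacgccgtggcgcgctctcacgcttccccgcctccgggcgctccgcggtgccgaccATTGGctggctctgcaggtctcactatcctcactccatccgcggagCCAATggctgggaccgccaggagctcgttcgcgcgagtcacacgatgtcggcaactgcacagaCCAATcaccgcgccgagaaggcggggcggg
These stretches are chr7:155297628-155297775 (+), chr5:43313513-43313662 (-), chr16:88663162-88663341 (-), chr5:111512591-111512785 (-) and chr4:165327419-165327622 (+).

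HMGCS1, the enzyme that makes HMG-CoA, at chr5:43289395-43313512, stood at 345, 350.5 and 373 CPM in the vehicle libraries, 425, 424 and 431 with SR4, 223, 229.9 and 243 with lonidamine and 1366, 1369.7 and 1361 with both. SR4 libraries lay above vehicle, lonidamine libraries below, and combination libraries far above all others. Adding the single changes would give 278 CPM, so the interaction was 2.30 ± 0.050 log2 (SE, adjusted p = 1.02e-22). ACAT2, which joins the first acetyl units, was lowered by SR4 (-0.40 log2) and lonidamine (-1.03) and raised by both (1.19), an interaction of 2.62 ± 0.085 log2 (SE). FDPS, which makes farnesyl diphosphate, followed the same course with 168 ± 5.28, 116 ± 3.69, 102 ± 2.48 and 357 ± 8.06 CPM (SD, n = 3), an interaction of 2.34 ± 0.059 log2 (SE). IDI1, the isomerase of the pathway, and MVD, the decarboxylase, changed by under 0.5 log2 with each compound and by 1.68 and 2.38 log2 with both.

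The 4 tested uptake and transport genes all had a positive interaction, against 1 of the 3 genes of sterol sensing and transcription. STARD4, a sterol carrier, stood at 56.7 ± 4.29 CPM with vehicle and 181 ± 3.56 with both (SD, n = 3), an interaction of 1.77 ± 0.090 log2 (SE). INSIG1, the endoplasmic reticulum anchor that holds back SREBP and is itself a sterol-controlled gene, stood at 143, 147 and 147 CPM in the vehicle libraries, 255, 247 and 259 with SR4, 185, 175 and 187 with lonidamine and 1125, 1112 and 1127 with both. All combination libraries were above the rest, where 317 CPM would follow from the single changes, an interaction of 1.82 ± 0.050 log2 (SE, adjusted p = 1.01e-20). SREBF2, which encodes the factor for cholesterol genes, had 0.070 ± 0.050 log2 (SE, adjusted p = 0.257) and was not called. On the linear scale SREBF2 was called positive, at 33.2 CPM (limma's test, adjusted p = 0.00142). SREBF1, its relative for fatty acid genes, stood at 132, 103, 135 and 91.98 CPM in the order vehicle, SR4, lonidamine and both, and its interaction of -0.20 ± 0.074 log2 (SE, adjusted p = 0.0315) missed the threshold under 9 of 19 alternative settings.

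**Figure D2:**
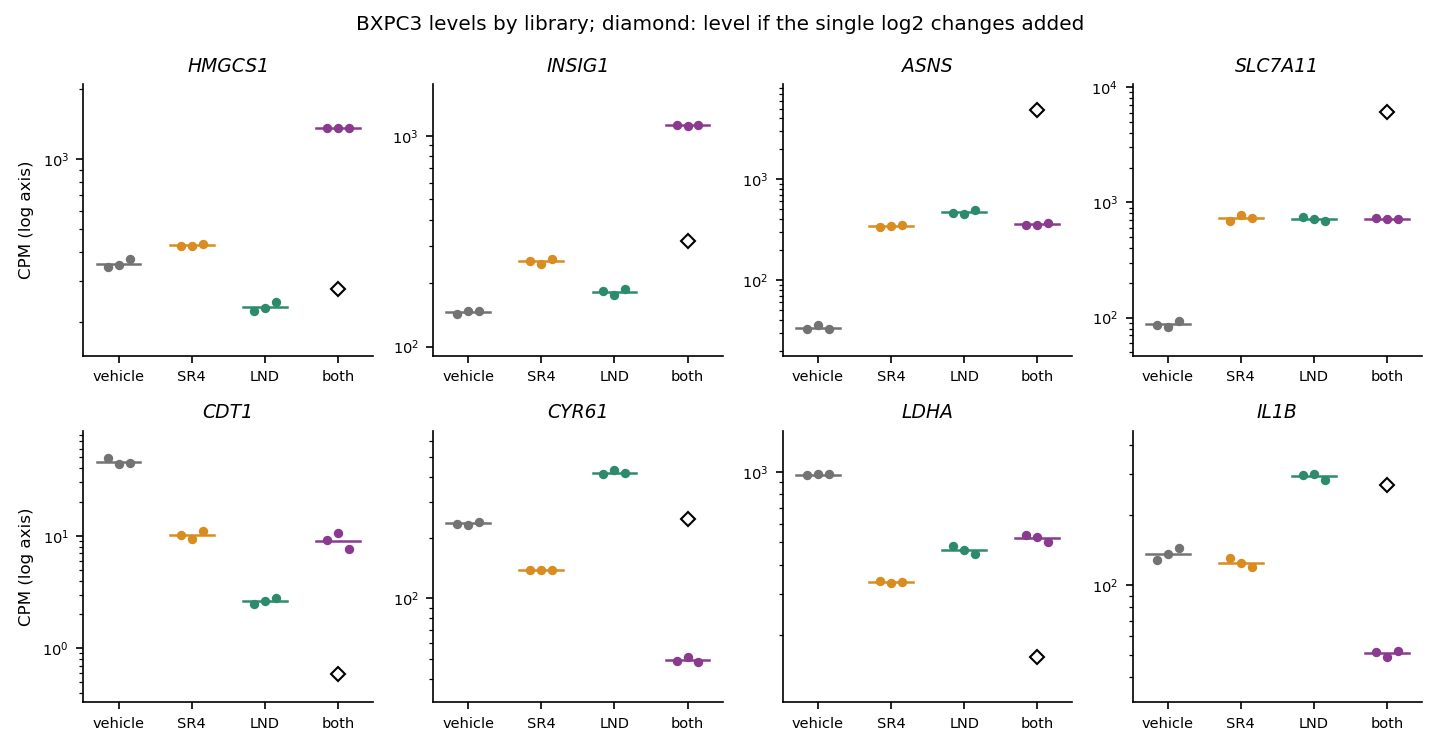
CPM of 8 genes in each BXPC3 library (points, log axis) with group means (lines), and the level that the single log2 changes would give if they added (diamonds). HMGCS1 and INSIG1 lie above the diamond with both compounds, ASNS, SLC7A11, CYR61 and IL1B lie below it, and CDT1 and LDHA lie above it but under vehicle.

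Fatty acid synthesis genes also stood mostly above the sum. Of 20 tested members 13 had a positive interaction and 2, SREBF1 and DGAT2, a negative one, against 23.7% and 25.5% of all genes. The median interaction was 0.77 log2. ACSS2, which makes acetyl-CoA from acetate, stood at 60.5, 58.4 and 56.01 CPM in the vehicle libraries, 113, 110.0 and 112 with SR4, 125, 124 and 128 with lonidamine and 560.2, 542 and 554 with both. Each compound alone raised it, the groups did not overlap, and the combination exceeded the 241 CPM of the added changes by 1.198 ± 0.058 log2 (SE, adjusted p = 2.31e-15). ELOVL5, an elongase, and ACSL1, an acyl-CoA ligase, differed from vehicle by at most 0.16 log2 with single compounds and had 1.28 ± 0.050 and 1.27 ± 0.085 log2 (SE).

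ATF4 targets showed the opposite pattern, with large single changes and a median with both compounds that did not exceed that with lonidamine. Of 37 tested members 35 had a negative interaction, 1 (ATF5) a positive one and 1 was not called, against 25.5% negative over all genes. The median change was 1.81 log2 with SR4, 2.10 with lonidamine and 2.06 with both, a median interaction of -1.90. ATF4 itself was highest in all combination libraries, at 271, 514, 651 and 818 CPM with vehicle, SR4, lonidamine and both, with -0.59 ± 0.048 log2 (SE). ASNS, asparagine synthetase, at chr7:97852118-97872542, stood at 32.5, 35.7 and 32.7 CPM in the vehicle libraries, 336, 344 and 349.9 with SR4, 461, 455 and 497 with lonidamine and 353, 353 and 368 with both. SR4 and combination libraries lay close together and lonidamine libraries above them, where adding the changes would give 4813 CPM, an interaction of -3.75 ± 0.063 log2 (SE, adjusted p = 2.85e-25). SLC7A11, the cystine importer, stood at 85.3, 82.2 and 93.7 CPM in the vehicle libraries, 689.7, 776 and 736 with SR4, 748, 722 and 691 with lonidamine and 734, 716 and 711 with both. Its 3 treated groups overlapped, and the interaction was -3.07 ± 0.063 log2 (SE, adjusted p = 2.50e-23). TRIB3, a pseudokinase that feeds back on ATF4, went further with both compounds (850.3 CPM) than with SR4 (535) or lonidamine (427) and still had -3.43 ± 0.065 log2 (SE).

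Within the ATF4 targets the combination did not always keep the level of the single compounds. SLC7A5, the large neutral amino acid transporter, stood at 442 ± 11.3 CPM with vehicle, 1096 ± 41.3 with SR4, 2313 ± 51.9 with lonidamine and 675 ± 32.7 with both (SD, n = 3), an interaction of -3.09 ± 0.050 log2 (SE). PSAT1, of serine synthesis, was also lower with both compounds than with either, at 378 CPM against 480.3 and 743. Stress factors went the other way. DDIT3, the factor CHOP, ATF3 and GDF15, a secreted stress hormone, had combination libraries above the other 9 at 198, 65.4 and 192 CPM, with interactions of -1.99, -0.91 and -1.58 log2. On the linear scale all 3 turned positive, with 30.4 ± 3.83, 20.9 ± 1.495 and 8.18 ± 6.55 CPM (SE), that of GDF15 within 2 SE of 0. CHAC1, which degrades glutathione, and SESN2, a sensor of leucine, had -2.50 and -1.85 log2. Of 20 cytosolic tRNA synthetases, enzymes that charge tRNAs and are partly ATF4 targets, 13 had a negative interaction, against 25.5% of all genes. A positive one was called for 1, QARS (0.50 log2), against 23.7% of all genes. MARS, GARS and AARS had -1.56, -1.37 and -1.37 log2.

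Most chaperones of the endoplasmic reticulum stood above the sum. In the list of 24 genes 12 had a positive and 5 a negative interaction, against 23.7% and 25.5% of all genes, and 11 of the 14 chaperones were positive. On the linear scale 19 of the 24 were called positive, against 3975 of 12920 genes. The 5 negative on the log2 scale were HERPUD1, SEL1L and EDEM1, which clear misfolded proteins, and XBP1 and ERN1, of the stress sensor. CALR, calreticulin, fell with each treatment, from 1419.7 CPM to 843, 732 and 819 with SR4, lonidamine and both, an interaction of 0.91 ± 0.040 log2 (SE). HSPA5, the chaperone BiP, rose in every treatment and most with both, at 2525 CPM, with 0.27 ± 0.039 log2 (SE). XBP1, the factor spliced under such stress, had -0.96 ± 0.058 log2 (SE). DERL3, of the degradation channel, had 3.03 ± 0.56 log2 (SE) at 2.48 CPM or less in every group.

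NRF2 targets, genes of the antioxidant response, mostly had negative interactions, 15 of 28 against 5 positive (25.5% and 23.7% of all genes). On the linear scale only 9 of these targets were called negative, against 2593 of 12920 genes. They had medians of 0.98 log2 for SR4, 0.42 for lonidamine and 1.25 for both, and a median interaction of -0.31. NQO1, a quinone reductase, stood at 98.8, 92.1 and 95.7 CPM in the vehicle libraries, 350.3, 367 and 344 with SR4, 256, 256 and 238 with lonidamine and 354, 332 and 339.9 with both. Combination and SR4 libraries overlapped, an interaction of -1.44 ± 0.059 log2 (SE, adjusted p = 5.92e-17). OSGIN1, an oxidative stress growth inhibitor, had -2.02 log2. FTL and FTH1, the light and heavy chains of the iron store ferritin, were highest in all combination libraries. FTL had -1.11 ± 0.043 log2 (SE) and FTH1 -0.30 ± 0.041 (SE, adjusted p = 1.04e-06). On the linear scale FTH1 turned positive, and FTL, at -890 CPM, was not called (limma's test, adjusted p = 0.073). SLC11A2, the iron importer DMT1, had -0.47 log2.

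DNA replication genes were low with each compound, and the combination stood above the sum. Among 41 genes of G1/S and replication 36 had a positive and 2 a negative interaction, against 23.7% and 25.5% of all genes. All 28 replication genes were positive. The median change was -2.25 log2 with SR4, -2.95 with lonidamine and -3.06 with both. MCM7, of the replicative helicase, stood at 455, 464 and 468 CPM in the vehicle libraries, 129.7, 121 and 119 with SR4, 62.01, 68.1 and 59.2 with lonidamine and 93.3, 96.8 and 98.3 with both. Combination libraries lay between those of SR4 and lonidamine, where the added changes would give 16.8 CPM, an interaction of 2.51 ± 0.068 log2 (SE, adjusted p = 9.62e-21). CDT1 and ORC1, which license origins, had 3.95 ± 0.20 and 4.93 ± 0.28 log2 (SE), LIG1, the replicative ligase, 3.34, PCLAF, a PCNA partner, 4.42, and TYMS, thymidylate synthase, 3.10. ORC1 was at 1.23 CPM with lonidamine and 3.96 with both, so lonidamine alone was the lowest group. The added changes would put ORC1 at 0.128 and PCLAF at 0.129 CPM, under the 0.337 CPM that 3 counts make in the shallowest library.

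Against this pattern, CCND1 and CDK6, the cyclin and kinase that open G1, had negative interactions. CDK6 stood at 444, 412 and 479.6 CPM in the vehicle libraries, 432, 482 and 452 with SR4, 455, 462 and 457 with lonidamine and 224, 229 and 228 with both. It was called for neither compound alone (adjusted p = 0.523 and 0.42 in edgeR's test), and the combination libraries were below the other 9, an interaction of -1.05 ± 0.063 log2 (SE). CCND1 fell to 231 CPM with both from 419, with -0.70 ± 0.049 log2 (SE).

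Mitotic genes were lowest with the combination, yet stood above the sum. In 35 of 39 the combination libraries were below the other 9 (19.9% over all genes). Of the 39, 34 had a positive and 0 a negative interaction, against 23.7% and 25.5% of all genes. Median changes were -1.83, -2.78 and -3.85 log2 with SR4, lonidamine and both. MYBL2, a factor of cell cycle genes, stood at 287, 37.1, 21.1 and 12.3 CPM with vehicle, SR4, lonidamine and both, an interaction of 2.17 ± 0.13 log2 (SE). TTK and MAD2L1, of the spindle checkpoint, had 1.69 and 1.63 log2, and CCNB1 and TOP2A, mitotic cyclin and topoisomerase, 0.87 and 0.58. CDKN1A, the inhibitor p21, was highest with both compounds at 910.1 ± 30.3 CPM against 169 ± 5.46 with vehicle (SD, n = 3). Its interaction was -0.29 ± 0.050 log2 (SE) and positive on the linear scale. CDKN2C, another inhibitor, and DDB2, a p53 target of DNA repair, had 2.80 and 1.51 log2. In the list of inhibitors and p53 targets 12 of 22 genes were negative and 6 positive, against 25.5% and 23.7% of all genes. On the linear scale 8 of the 22 were called negative, against 2593 of 12920 genes. For CDKN2C the added changes give 0.0844 CPM, which is also under the level of 3 counts.

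**Figure D3:**
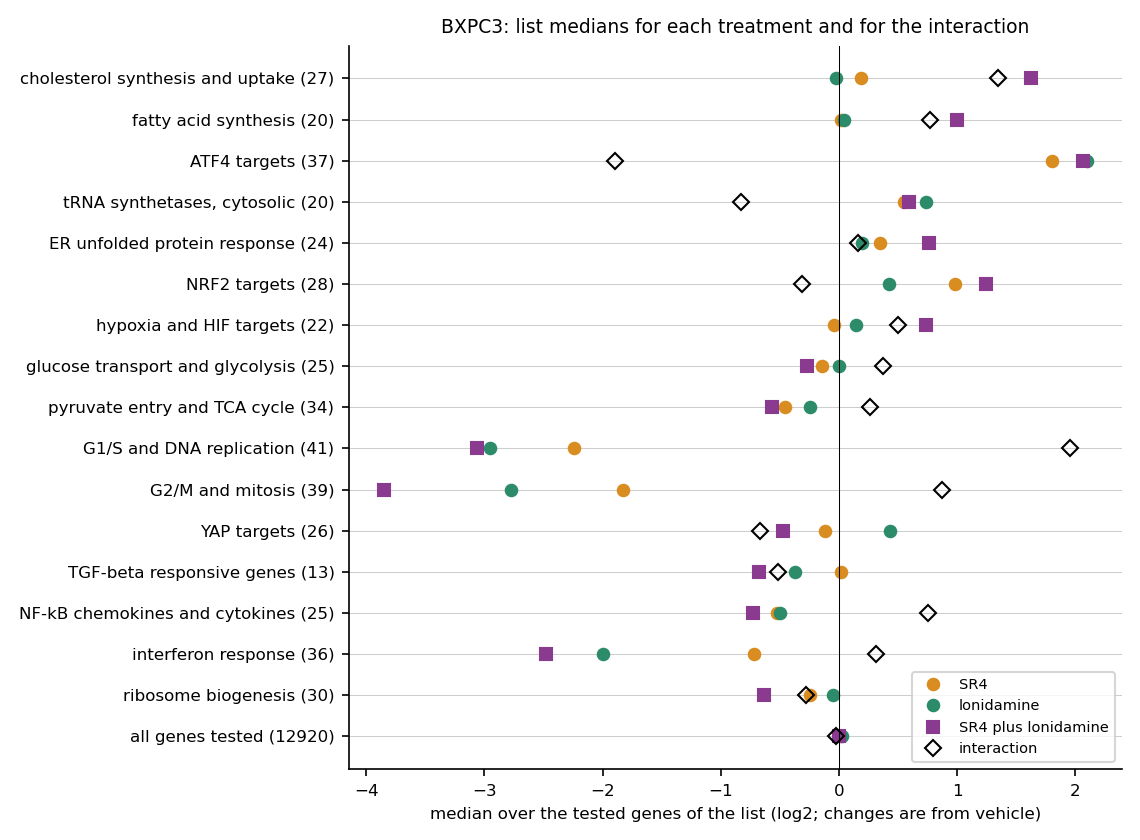
Median over the tested genes of each list (number in brackets) of the log2 change from vehicle with SR4, lonidamine or both, and of the interaction (open diamonds). The cholesterol list has single medians near 0 and a combination median of 1.63, the ATF4 list has medians of 1.81, 2.10 and 2.06, and the YAP list has its combination median at -0.47.

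YAP targets, genes of the growth-control factor YAP with TEAD, stood under the sum. Of 26 tested genes 21 had a negative and 2 a positive interaction, against 25.5% and 23.7% of all genes. Among the 19 targets proper 17 were negative and 0 positive. In 12 of these 19 the combination libraries lay below the other 9 (19.9% over all genes). CYR61, a secreted matrix protein also named CCN1, at chr1:85580761-85583962, stood at 234, 232 and 238 CPM in the vehicle libraries, 137, 138 and 138 with SR4, 411, 431 and 415 with lonidamine and 48.7, 50.9 and 48.6 with both. SR4 lowered it, lonidamine raised it, and with both it was lowest in every library, an interaction of -2.32 ± 0.057 log2 (SE, adjusted p = 1.12e-21). ANKRD1, a titin-binding repressor, stood at 145, 75.2, 158 and 17.9 CPM in the order vehicle, SR4, lonidamine and both. AJUBA, a LIM adaptor, and F3, tissue factor, also rose with lonidamine and were lowest with both, with -1.74 ± 0.056 and -1.67 ± 0.039 log2 (SE).

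TGF-beta responsive genes had 8 negative and 2 positive interactions among 13, against 25.5% and 23.7% of all genes. PMEPA1, a feedback inhibitor, went from 348 CPM to 703 with SR4 and 253 with both, an interaction of -1.66 ± 0.049 log2 (SE). TGFB2, the ligand, fell in every treatment, to 9.11 CPM with both from 90.7, with a negative log2 interaction that was positive on the linear scale.

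Of 13 keratins and ductal markers 8 had a negative and 5 a positive interaction, against 25.5% and 23.7% of all genes. KRT17, a keratin of basal cells, stood at 1551, 1499.9 and 1377 CPM in the vehicle libraries, 1428, 1299.6 and 1346 with SR4, 3894, 3939 and 3625 with lonidamine and 851, 918 and 984 with both. Lonidamine raised it in all libraries and the combination took it under vehicle, an interaction of -1.94 ± 0.064 log2 (SE, adjusted p = 4.52e-19). KRT6A, a keratin of squamous cells, had -1.43 ± 0.060 log2 (SE). KRT5 fell from 1767 ± 53.95 CPM with vehicle to 96.8 ± 6.26 with both (SD, n = 3), with -1.46 ± 0.076 log2 (SE), and turned positive on the linear scale. TP63, the factor of basal and squamous epithelium, at chr3:189631416-189897279, stood at 217, 221 and 234 CPM in the vehicle libraries, 321, 311 and 317 with SR4, 306, 304 and 289 with lonidamine and 109, 102 and 104 with both. It rose with each compound by 0.50 log2 or less and was below vehicle with both, without overlap, an interaction of -2.01 ± 0.058 log2 (SE, adjusted p = 2.43e-20). In the whole list of 24 epithelial and ductal genes 12 were negative and 9 positive. S100P, a calcium-binding protein of pancreatic cancer, had -1.83 log2.

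Hypoxia genes and glycolytic enzymes mostly stood above the sum in BXPC3 and below it in PANC1. In BXPC3 14 of 22 hypoxia and HIF target genes had a positive and 7 a negative interaction, against 23.7% and 25.5% of all genes. The median interaction was 0.50 log2. In PANC1 0 were positive and 18 negative, with a median of -1.36, against 30.8% positive and 30% negative over all genes tested there. The difference of the interactions, PANC1 minus BXPC3, was tested in 1 model of all 24 libraries and was negative for 19 of the 22, against 21.5% of 13930 genes. EGLN3, an oxygen-sensing hydroxylase, stood at 12.9, 8.67 and 7.99 CPM in the vehicle libraries, 5.52, 4.48 and 4.80 with SR4, 5.09, 3.98 and 2.06 with lonidamine and 17.8, 17.4 and 16.6 with both. It was lowered by both compounds and highest with the combination, an interaction of 3.20 ± 0.28 log2 in BXPC3, with a difference between lines of -5.58 ± 0.93 (SE, adjusted p = 6.21e-06). In PANC1 it stood at only 1.28, 1.05, 0.805 and 0.126 CPM with vehicle, SR4, lonidamine and both, so the size of that difference rests on few counts. P4HA1 and LOX, which modify collagen, had 0.85 and 0.74 log2 in BXPC3 and differences of -2.36 ± 0.12 and -2.74 ± 0.31 (SE).

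Some hypoxia genes had negative interactions in BXPC3 too. VEGFA, the vascular growth factor, and NDRG1, a stress-induced growth regulator, were highest in all BXPC3 combination libraries and had -0.63 ± 0.093 and -0.92 ± 0.049 log2 (SE), which were positive on the linear scale. ANGPTL4, an inhibitor of lipoprotein lipase, peaked with lonidamine at 22.00 CPM, against 8.56 with both, and had -2.03 ± 0.23 log2 (SE). CA12, a carbonic anhydrase, changed by -0.39 and -0.43 log2 with single compounds and by -3.41 with both, where it was at 0.889 CPM.

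Of 25 genes of glucose transport and glycolysis 18 had a positive and 5 a negative interaction in BXPC3, against 23.7% and 25.5% of all genes. All 11 of lower glycolysis were positive. LDHA, lactate dehydrogenase A, at chr11:18394388-18408425, stood at 968, 976 and 974 CPM in the vehicle libraries, 341, 335 and 336 with SR4, 480.2, 464 and 445 with lonidamine and 535, 527 and 498 with both. All treatments lay under vehicle without overlap, and the combination above both single compounds, an interaction of 1.69 ± 0.048 log2 (SE, adjusted p = 2.43e-20). In PANC1 the interaction of LDHA was -0.71 log2, and the difference -2.47 ± 0.091 (SE, adjusted p = 5.81e-23). ENO2 and SLC2A3, the neuronal enolase and the glucose transporter GLUT3, rose to 57.4 and 33.98 CPM with both compounds from 5.49 and 1.61. SLC2A1, the transporter GLUT1, was lowered by SR4 only, had 0.37 ± 0.053 log2 (SE) and differed between lines by -2.87 ± 0.10 (SE). HK2, hexokinase, had -0.67 ± 0.067 log2 (SE). Over the list, the difference between lines was negative for 20 genes and positive for 3, against 21.5% and 17.7% of all genes.

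Genes of pyruvate entry and the TCA cycle had 21 positive and 1 negative interaction among 34, against 23.7% and 25.5% of all genes. The median interaction was 0.26 log2, and the median change with both compounds -0.57. Combination libraries lay below the other 9 in 13 of the 34 and above them in 5, against 19.9% and 21.2% of all genes. MPC1 and MPC2, the 2 subunits of the mitochondrial pyruvate carrier that lonidamine is known to block, had 0.74 ± 0.19 and 1.13 ± 0.14 log2 (SE). MPC2 stood at 20.5, 21.3 and 21.2 CPM in the vehicle libraries, 14.5, 15.7 and 15.9 with SR4, 14.9, 15.1 and 16.3 with lonidamine and 25.6, 20.5 and 27.7 with both. Both compounds lowered it alone, and with both together its libraries overlapped with those of vehicle. PDK1 and PDK3, kinases that shut pyruvate dehydrogenase, had 1.17 and 1.57 log2 in BXPC3 and differed between lines by -1.92 ± 0.20 and -3.26 ± 0.62 (SE), the latter with 0.275 CPM in the PANC1 combination. IDH1, the cytosolic isocitrate dehydrogenase, had 0.73 and differed by -2.41 ± 0.091 (SE). Subunits of the respiratory chain mostly followed the sum. In either direction 8 of 37 complex I genes and 13 of 35 of complexes III to V were called, against 49.2% of all genes. Their median interactions were -0.008 and 0.048 log2. Combination libraries lay below the other 9 in 23 and 32 of them, against 19.9% of all genes. Their median changes with both compounds were -0.70 and -0.89 log2. Glucose-sensing targets of MondoA were divided, with TXNIP and ARRDC4, arrestins that lower glucose uptake, at -1.94 ± 0.054 and -2.51 ± 0.13 log2 (SE) and KLF10 at 0.73 ± 0.064.

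**Figure D4:**
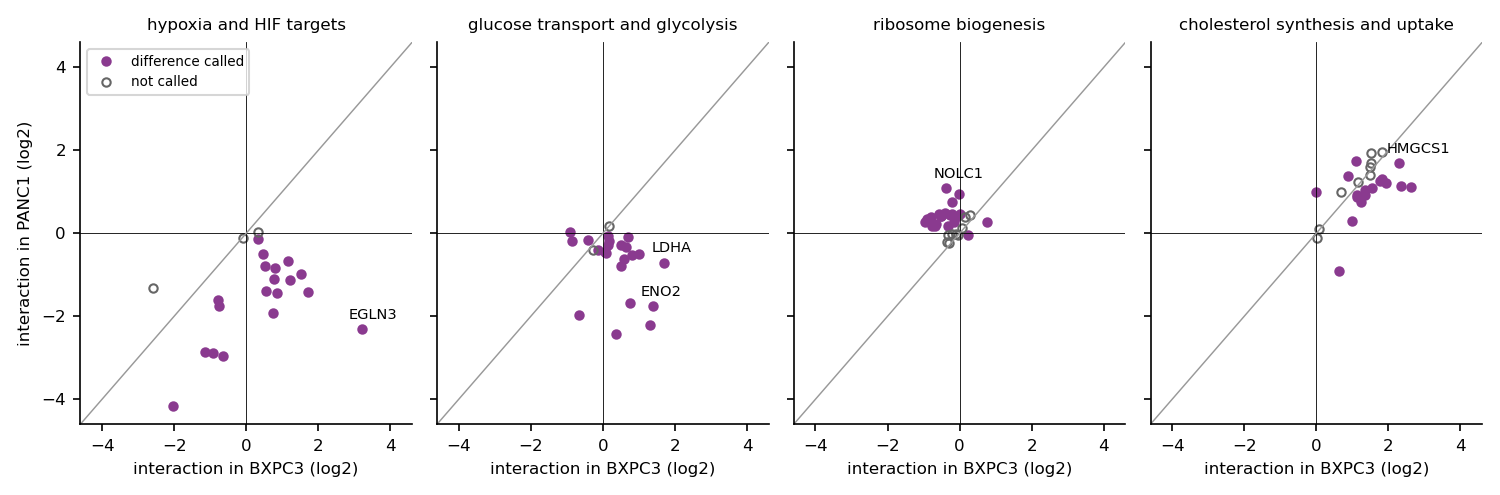
Interaction in BXPC3 (x axis) against that in PANC1 (y axis), both in log2, for the genes of 4 lists that were tested in both lines, with filled points where the difference between lines was called. Hypoxia and glycolysis genes lie mostly right of and below the diagonal, ribosome biogenesis genes above it, and cholesterol genes mostly in the upper right.

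Cholesterol genes mostly had positive interactions in both lines. In PANC1 23 of 26 were positive and 1 negative, against 30.8% and 30% of all genes tested there, with a median of 1.13 log2. A positive interaction need not be a rise over vehicle. In PANC1 ACAT2 stood at 133, 46.7, 84.0 and 63.6 CPM with vehicle, SR4, lonidamine and both. PANC1 levels of the other members are not given here. The difference between lines was called negative for 14 and positive for 3 of 27, against 21.5% and 17.7% of all genes. ACAT2 differed by -1.58 ± 0.11 log2 (SE, adjusted p = 1.18e-14) and IDI1 by 0.062 ± 0.10 (SE, adjusted p = 0.683). Of 11538 genes tested in both lines, 5785 were called in BXPC3 and 7229 in PANC1. The 3976 called in both were 68.7% of the BXPC3 and 55% of the PANC1 calls. Sets of this size would share many genes in any case. Of the 3976 genes, 2948 had the same sign and 1028 (25.9%) the opposite one. The difference was called for all 1028, but opposite calls from the same libraries make this nearly certain, so it is no separate result.

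Inflammatory genes went in 2 directions. Of 25 NF-kB chemokines and cytokines 15 had a positive and 5 a negative interaction, against 23.7% and 25.5% of all genes. CXCL5, a neutrophil chemokine, was lowered from 288 CPM to 85.1, 67.4 and 79.6 with SR4, lonidamine and both, an interaction of 2.001 ± 0.075 log2 (SE). IL1B, the inflammasome cytokine, at chr2:112829751-112836903, stood at 128, 136 and 144 CPM in the vehicle libraries, 131, 125 and 119 with SR4, 297, 301 and 285 with lonidamine and 51.4, 48.7 and 51.9 with both. Lonidamine libraries lay above all others and combination libraries below all others, while SR4 and vehicle overlapped, an interaction of -2.41 ± 0.071 log2 (SE, adjusted p = 4.60e-20). IL1A, its relative, was raised by each compound and lowest with both, with -1.94 ± 0.058 log2 (SE). LCN2, an iron-binding acute phase protein, had 0.98 in BXPC3 and differed from PANC1 by -6.65 ± 0.72 (SE). The interferon response list had median changes of -0.72, -1.995 and -2.48 log2 for SR4, lonidamine and both. Of 36 genes of the interferon response 15 were positive and 5 negative, against 23.7% and 25.5% of all genes. On the linear scale 26 of the 36 were called positive, against 3975 of 12920 genes. Of these 36, 32 are targets and 4 are signalling genes, and among the targets 13 were positive and 5 negative. IFI44 and IFI44L had 1.55 and 1.44 log2, and IFIH1, an RNA sensor, 0.88. CXCL10, an interferon-induced chemokine, had 0.96 ± 0.31 log2 (SE, adjusted p = 0.0113).

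Ribosome biogenesis genes were mostly below the sum in BXPC3 and above it in PANC1. In BXPC3 17 of 30 were negative and 3 positive, against 25.5% and 23.7% of all genes. In 23 the combination libraries lay below the other 9 (19.9% over all genes). In PANC1 21 were positive and 2 negative, against 30.8% and 30% of all genes tested there. The difference between lines was positive for 19 and negative for 2, against 17.7% and 21.5% of all genes. NOLC1, a nucleolar chaperone, stood at 327, 332 and 337 CPM in the vehicle libraries, 282, 275 and 278 with SR4, 327, 334 and 319 with lonidamine and 217, 210.0 and 206 with both. Lonidamine and vehicle libraries overlapped and the combination was lowest, with -0.38 ± 0.050 log2 in BXPC3 and a difference of 1.39 ± 0.072 (SE, adjusted p = 1.87e-18). WDR12 and NOP16, of the large subunit, had -0.97 and -0.89 log2. TCOF1, which drives ribosomal RNA transcription, was an exception at 0.77.

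A group of 249 genes changed by under 0.5 log2 with each compound and by at least 1 log2 with both, 102 upward and 147 downward. Besides the mevalonate genes, the upward set had TNFSF9, a T-cell costimulatory ligand, at 5.82, 4.47 and 4.62 CPM in the vehicle libraries, 4.79, 4.48 and 2.99 with SR4, 4.79, 4.47 and 3.91 with lonidamine and 15.5, 17.05 and 15.4 with both. Single treatments overlapped with vehicle and the combination stood apart, an interaction of 2.15 ± 0.24 log2 (SE, adjusted p = 3.63e-08). Downward were CARD10, a scaffold of NF-kB signalling, PTGS1, the cyclooxygenase COX-1, and TCF7L1, a repressor of Wnt targets. Their combination means were 13.9, 11.9 and 10.04 CPM, against 36.2, 52.2 and 31.1 with vehicle. In 118 genes both single compounds were called one way and the combination the other way, 57 with a positive and 61 with a negative interaction. GJB6, a gap junction protein, and LARGE2, a glycosyltransferase, were among the negative ones with -3.11 ± 0.18 and -2.25 ± 0.18 log2 (SE).

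Where a gene rose with both compounds, log2 and linear scales could give opposite signs. Of 3298 negative genes 192 had a positive linear interaction, 106 of them by more than 2 SE, and 2 of the 3061 positive genes had a negative one, of which CYP1B1 by more than 2 SE. FTH1 stood at 1656, 1582 and 1511 CPM in the vehicle libraries, 5456, 5630.1 and 5406 with SR4, 4271, 4106 and 3948 with lonidamine and 11814, 11485 and 11533 with both. Adding the CPM changes gives 8022 and adding the log2 changes 14267, and the measured combination mean of 11611 ± 177 (SD, n = 3) lay between them, 3588 ± 159.9 CPM above the linear sum (SE). NDRG1 stood at 1827 ± 26.9 CPM with both, between 1000.2 and 3457, and HMOX1, haem oxygenase, at 53.2 ± 1.99, between 31.7 and 79.99 (SD, n = 3). For VEGFA the linear excess was 78.3 ± 50.1 CPM (SE), within 2 SE of 0.

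The same reversal occurred among genes that fell. CPA4, a carboxypeptidase, stood at 140.0, 139.7 and 155 CPM in the vehicle libraries, 47.1, 41.9 and 45.8 with SR4, 38.2, 38.1 and 45.8 with lonidamine and 2.31, 1.89 and 2.81 with both. SR4 and lonidamine libraries overlapped and the combination lay far below both, with -2.43 ± 0.18 log2 (SE) but 61.6 ± 5.89 CPM above the linear sum (SE). IGFBP5, an insulin-like growth factor binding protein, likewise fell to 1.70 CPM with both, an interaction of -1.51 ± 0.22 log2 (SE), and TENM2, an adhesion protein, to 0.22. Both were positive on the linear scale. CYP1B1, a target of the aryl hydrocarbon receptor, stood at 22.9, 5.38, 87.7 and 25.9 CPM with vehicle, SR4, lonidamine and both, with 0.33 ± 0.13 log2 (SE, adjusted p = 0.0338) and -44.3 ± 0.94 CPM (SE). Its log2 value missed the threshold under 14 of 19 alternative settings.

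**Figure D5:**
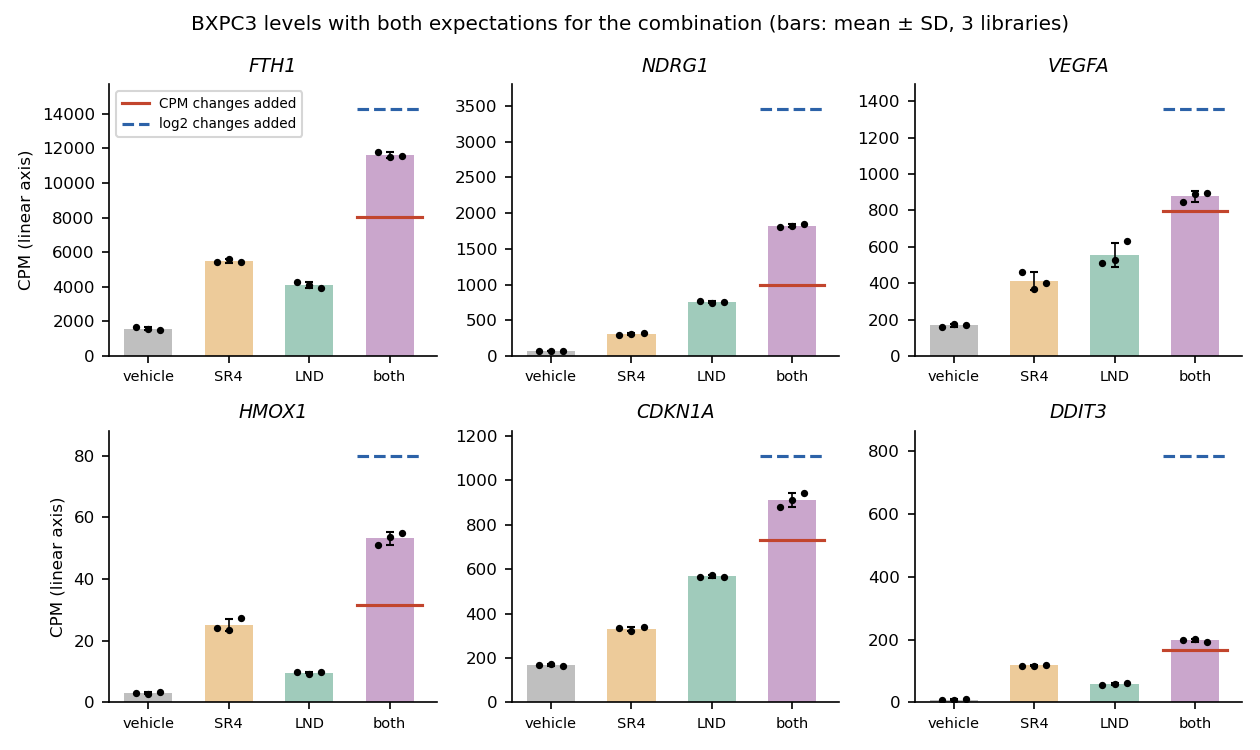
CPM of 6 genes in BXPC3 on a linear axis from 0, as mean ± SD (bars, 3 libraries) and single libraries (points), with the combination level expected if CPM changes added (solid line) or log2 changes added (dashed line). All 6 combination bars lie between the lines, so the interaction is positive on the linear and negative on the log2 scale.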

How the data were processed

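RNA from 12 BXPC3 and 12 PANC1 libraries was measured by poly(A) RNA-seq. The deposited values are raw gene counts, and gene length in kb comes with them in the authors' tables. GRCh38 (hg38), Partek, DESeq2 and STAR 2.7.8a are named in the submitters' processing notes. Which tool counted reads, with which annotation and strand setting, was not given in the sources used here. Overlapping and antisense genes may therefore share counts. Groups follow the sample titles. One SR4 library is titled with the number 4 and its column with 3, so it was kept without a number.

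Counts were fitted with edgeR 4.0.16 (R 4.3.3) using TMM scaling, a low-count filter (minimum count 10), 4 groups and the quasi-likelihood test, with Benjamini-Hochberg adjustment over 12920 of 25168 genes and a threshold of 0.05. The PANC1 minus BXPC3 difference came from 1 model of 8 groups. Errors of linear interactions are from the 4 group SDs. On simulated counts 64% of planted interactions of 0.5 log2 and 88% of 1 log2 were recovered among 12816 genes. Each size was planted in 100 genes, and 11 of the 163 calls were false. Planted genes excluded very low expected levels, and all other genes had no interaction. The real data differ in both, so recovery in them may differ too. Alternatives used DESeq2 1.42.0 and limma 3.58.1. Promoters are from RefSeq (GRCh38.p14).

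The members and gene lists were chosen with earlier results of these data known. Named genes are the most positive and most negative interactions by size less 2 SE: overall (8 each way, mean log2 CPM at least 2), among genes with single changes under 0.5 and a combination change of at least 1 (5), among genes with single and combination changes in opposite directions (4), among genes with opposite linear sign (3), up to 3 per list, and a panel of marker genes. Of these 126 genes not all are printed, and some are not reported here. SLC7A5, PSAT1, CHAC1, HSPA5, SLC2A1, LOX, P4HA1, KRT5, CDK6, CCND1, LCN2, F3, NOLC1, IDH1 and MCM7, and list members printed beside them, were named after their values were seen.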

Additional observations from a re-analysis of the deposited data

Results flagged for a closer look

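Of 141 genes followed by name, 101 had a called difference between the interactions of the 2 lines (edgeR's quasi-likelihood test over all 24 libraries). Many of the 141 were picked for an extreme BXPC3 interaction or after their values were seen, so this count is a description, and 9 of the 101 calls changed under alternative settings. In 22 of them the interaction was called in both lines with opposite signs. Each value below is the PANC1 interaction minus the BXPC3 interaction, in log2 ± SE. A negative value means that the interaction was higher in BXPC3, whichever side of the sum each line lay on.

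Hypoxia and glucose genes had negative differences: EGLN3 -5.58 ± 0.93, LOX -2.74 ± 0.31, P4HA1 -2.36 ± 0.12, ENO2 -3.20 ± 0.22, LDHA -2.47 ± 0.091 and SLC2A1 -2.87 ± 0.10. The pyruvate dehydrogenase kinases PDK1 and PDK3 had -1.92 ± 0.20 and -3.26 ± 0.62, and IDH1 -2.41 ± 0.091. LCN2 had the most negative value of the 22, -6.65 ± 0.72. HSPA5 differed by -1.90 ± 0.060, IER3, an immediate early gene, by -2.62 ± 0.11, SPRY1, a feedback inhibitor of growth factor signalling, by -1.89 ± 0.30, and CYP1B1 by -1.48 ± 0.16. In the other direction stood DUSP7, a phosphatase of ERK kinases, at 2.37 ± 0.17, PMEPA1 at 2.19 ± 0.079, CARD10 at 2.03 ± 0.15 and CDK6 at 1.70 ± 0.11. The ribosome biogenesis genes NOLC1, NOP16 and WDR12 had 1.39 ± 0.072, 1.17 ± 0.13 and 1.17 ± 0.11, and the iron importer SLC11A2 1.08 ± 0.11.

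Whole lists also differed. The difference was called negative for 19 hypoxia genes, 20 glycolysis genes, 12 NF-kB genes, 14 cholesterol genes and 11 of 15 antigen presentation genes, and positive for 19 ribosome biogenesis genes and 21 of 39 mitotic genes, against 21.5% negative and 17.7% positive over all genes. Of the 25 NF-kB genes 15 passed the low-count filter in PANC1. Groups of 3 libraries are too small for a test of single outlying libraries.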

How the results depend on the processing

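With an interaction of at least 1 log2 required, 730 positive and 671 negative genes remained in number, and with a gap of at least 0.5 log2, 518 genes had combination libraries above and 608 below the other 9. On the linear CPM scale (limma), 19 endoplasmic reticulum genes were called positive instead of 12, 9 NRF2 targets negative instead of 15 and 26 interferon genes positive instead of 15. Over all 12920 genes, 3975 were called positive and 2593 negative on that scale. Of the 141 genes followed across settings, 15 turned sign on that scale, in CPM: CDKN1A 181, CPA4 61.6, DDIT3 30.4, FTH1 3588, GDF15 8.18, HMOX1 21.4, IGFBP2 9.09, IGFBP5 176, KRT5 339.5, NDRG1 827, OSCAR 13.8, TENM2 8.44, TGFB2 16.8, VEGFA 78.3 and CYP1B1 -44.3. Among log2 settings, 137 of 141 named genes kept direction and side of the threshold in all 19. The exceptions were CXCL10, SREBF1, CYP1B1 and MT1G. In these log2 settings MT1G was never called and ranged from -0.055 to 0.19 log2. On the linear scale MT1G and SREBF2 were called positive, while FTL, IGF2R and SREBF1 kept a negative sign but were no longer called. Leaving out 1 library at a time gave 2797 to 2974 positive and 3077 to 3199 negative genes, and moved no count by over 1.5 times. DESeq2's test kept 86.7% of the calls and its size factors 96.6%. Replicate numbers did not pair the samples (15 same-numbered pairs, correlation of deviations from -0.0754 to 0.0775). With the replicate number as a block, 2796 positive and 2962 negative genes were called. Interactions of genes with few counts in a group, such as INHBE, are limited by depth.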

Other observations

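Among 10 genes of the EGF receptor and its ligands 6 had a negative and 1 a positive interaction, against 25.5% and 23.7% of all genes. AREG, the ligand amphiregulin, had -2.09 ± 0.054 log2 and EGFR, the receptor, -1.101 ± 0.083 (SE). LRIG1, which promotes the receptor's degradation, had 1.095 ± 0.094 log2 (SE). Of 10 genes of the insulin-like growth factor axis 6 were negative and 0 positive, against the same shares.

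Of 23 immediate early genes 9 (39.1%) were positive and 8 (34.8%) negative, against 23.7% and 25.5% of all genes. FOS stood at 3.87, 2.38, 4.74 and 7.89 CPM and NR4A1 at 3.07, 5.04, 3.37 and 14.2 CPM with vehicle, SR4, lonidamine and both, with interactions of 1.45 ± 0.28 and 1.35 ± 0.26 log2 (SE). KLF4, an epithelial factor, had -1.16 ± 0.071 log2 (SE). Of 23 genes of nucleotide synthesis 9 were positive and 8 negative, against 23.7% and 25.5% of all genes. CAD and DHODH, of pyrimidine synthesis, had -0.56 ± 0.088 and -1.09 ± 0.25 log2 (SE). RRM1 and RRM2, the subunits of ribonucleotide reductase, had 2.21 ± 0.084 and 1.996 ± 0.21 log2 (SE). Combination libraries lay below the other 9 in all 4, as in 17 of the 23 list members, against 19.9% of all genes.

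CYP1A1, the classical target of the aryl hydrocarbon receptor, stood at 1.82, 1.86 and 1.69 CPM in the vehicle libraries, 1.38, 2.34 and 2.27 with SR4, 37.9, 35.5 and 32.6 with lonidamine and 14.5, 18.05 and 18.97 with both. Lonidamine libraries were highest, combination libraries lay between them and vehicle, and SR4 overlapped with vehicle, an interaction of -1.19 ± 0.29 log2 (SE, adjusted p = 0.00123). UGT1A6, a glucuronidation enzyme of the same list, had -2.52 ± 0.46 log2 (SE), and its locus shares exons with related genes, so the counts may be split. MT1G, a metallothionein, was at 2.24, 6.70, 8.58 and 26.9 CPM in the same order of groups. The combination was close to the 25.7 CPM of the added log2 changes, with 0.073 ± 0.24 log2 (SE, adjusted p = 0.828). On the linear scale MT1G was called positive, at 13.9 CPM (limma's test, adjusted p = 5.84e-08).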
